A study of Mus musculus with 24 samples.

Results

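Loss of *G9a* and *Glp* on top of loss of *Eset1* and *Eset2* was examined in mouse embryonic fibroblasts (MEFs) by comparing 3 *E1E2 G9Gl* RNA-seq libraries with 3 *E1E2* libraries, 6 of the 24 libraries of the series. The libraries were chosen by their genotype labels, with no use of measured values. *E1E2* cells come from clone A4, which carries a conditional *Eset1* (*Setdb1*) allele, an inducible Cre recombinase and a frameshift mutation in *Eset2* (*Setdb2*). *E1E2 G9Gl* cells come from a clone named E2, which was isolated from clone A4 after co-transfection of Cas9 vectors against *G9a* (*Ehmt2*) and *Glp* (*Ehmt1*). This clone name is not the condition *E2*, which by its labels is clone A4 without 4-hydroxytamoxifen (4-OHT). Both conditions were given 1 µM 4-OHT, the drug that switches on this Cre in order to delete part of *Eset1*. *Suv39h1* and *Suv39h2* were not targeted in either. Each genotype is a single clone, so the mutation and the history of the clone cannot be told apart, and p-values measure the spread between cultures of a clone. A second step that ends in loss of *G9a* and *Glp*, from *E1 S1S2* (*Eset1*, *Suv39h1* and *Suv39h2* lost) to *6KO1* (all 6 genes lost), shares no library with it and was tested beside it. That step also adds loss of *Eset2*.

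Silent chromatin carries methyl groups on lysine 9 of histone H3 (H3K9). G9a and Glp form a heterodimer that places mono- and dimethylation in gene-containing chromatin, Eset1 places trimethylation at retrotransposons, and the Suv39h enzymes place trimethylation at pericentric satellite repeats. Loss of G9a in embryonic cells is known to permit expression of germline and other tissue-restricted genes.

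The *E1E2* libraries held 27781564 to 31063732 counts and the *E1E2 G9Gl* libraries 24736829 to 29777651. Between 14.6 and 15.9% of counts fell on repeat elements in *E1E2*, and between 20.8 and 21.2% in *E1E2 G9Gl*. Among these 6 libraries, *E1E2* replicate 2 stood apart in U2 small nuclear RNA, with normalized counts of 153, 39380 and 188 in *E1E2* and 206, 206 and 198 in *E1E2 G9Gl*. Elsewhere in the series U2 was as high in *E2* replicate 2 (38593) and in *6KO2* (39913, 40227 and 58822). The cause was not tested. A normalized count is a count scaled to a common gene library of 25325051 counts. Library pairs of 1 condition differed by a chi-square per gene of 2.33 to 10.8, where sampling noise gives 1, so all 6 were kept as separate replicates. Among fibroblast markers, *Vim* and *Col1a1* were abundant in both conditions, whereas others, such as *Dcn* and *Pdgfra*, were low and fell, as given below. *Vim*, an intermediate filament gene, had normalized counts of 49643, 48307 and 48287 in *E1E2* and 55432, 56953 and 57669 in *E1E2 G9Gl*, and *Col1a1*, a chain of type I collagen, 30077, 27531 and 27103 in *E1E2* and 49959, 36901 and 39077 in *E1E2 G9Gl*. The summed level of markers of other cell types was 280.8 to 307.8 in *E1E2* and 555.7 to 584.7 in *E1E2 G9Gl*, with 5 of 11 tested markers higher (45.5%, against 14.8% of all genes tested), and 6 of 17 markers, among them *Cdh1* and *Sox2*, too low to test. A marker silent in *E1E2* entered the test only through another condition, so this share describes the tested markers alone. In bulk RNA, fewer cells of a type and less RNA per cell cannot be told apart.

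The targeted genes were lower in *E1E2 G9Gl*, although a frameshift need not lower RNA. *Ehmt2* had normalized counts of 4383, 4306 and 4060.3 in *E1E2* and 1031, 937 and 1041 in *E1E2 G9Gl* (log2 fold change -2.08, SE 0.09, adjusted p = 4.6e-15; edgeR's quasi-likelihood test with Benjamini-Hochberg adjustment, as for every adjusted p here). *Ehmt1* had 2412, 2533 and 2444 in *E1E2* and 1046, 1031 and 999.9 in *E1E2 G9Gl* (log2 fold change -1.26, SE 0.07, adjusted p = 7.9e-13). The groups did not overlap for either gene. *Suv39h2*, which was not targeted, also fell: it had 867, 841 and 866 in *E1E2* and 370.0, 357 and 355 in *E1E2 G9Gl* (log2 fold change -1.25, SE 0.08, adjusted p = 3.1e-12). *Setdb1*, with 1267, 1187 and 1256 in *E1E2* and 675, 657 and 679 in *E1E2 G9Gl*, was 0.88 lower on the log2 scale, short of the fold required for a call (adjusted p = 1.6e-09), and *Suv39h1* was 0.46 lower. *Setdb2* overlapped between the groups (log2 fold change -0.12, SE 0.10, adjusted p = 0.29). Of 22 tested readers, erasers and cofactors of H3K9 methylation, such as the HP1 proteins and the H3K9 demethylases, log2 fold changes lay between -0.91 and 0.27, below the fold required for a call, with a median of -0.02.

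Many genes that were silent in *E1E2* cells were expressed in *E1E2 G9Gl*, and fewer genes fell. A gene was called where the log2 fold change was at least 1 in size and the adjusted p at most 0.01. Of 18565 genes tested, 2754 were higher (14.8% of those tested) and 1258 lower (6.78%), against a median log2 fold change of 0.007 over all genes. Of the higher genes, 1312 (47.6%) had a mean normalized count of at most 10 in *E1E2*, and 307 had no count in any *E1E2* library. Among genes with a mean of at most 1 in *E1E2*, 531 of 797 were higher, whereas among those over 1000 there were 136 of 5528, with 228 lower. Genes so low in *E1E2* entered the test through their level in another condition, so the first share is a property of the tested set and not of all silent genes. The called genes had a median fold of 5.58 when higher and 3.32 when lower. By gene type, 200 of 500 tested lincRNAs were higher (40%) and 1990 of 13491 protein-coding genes (14.8%). Of 301 tested snoRNAs, 67 were lower (22.3%) and 3 higher.

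**Figure D1:**
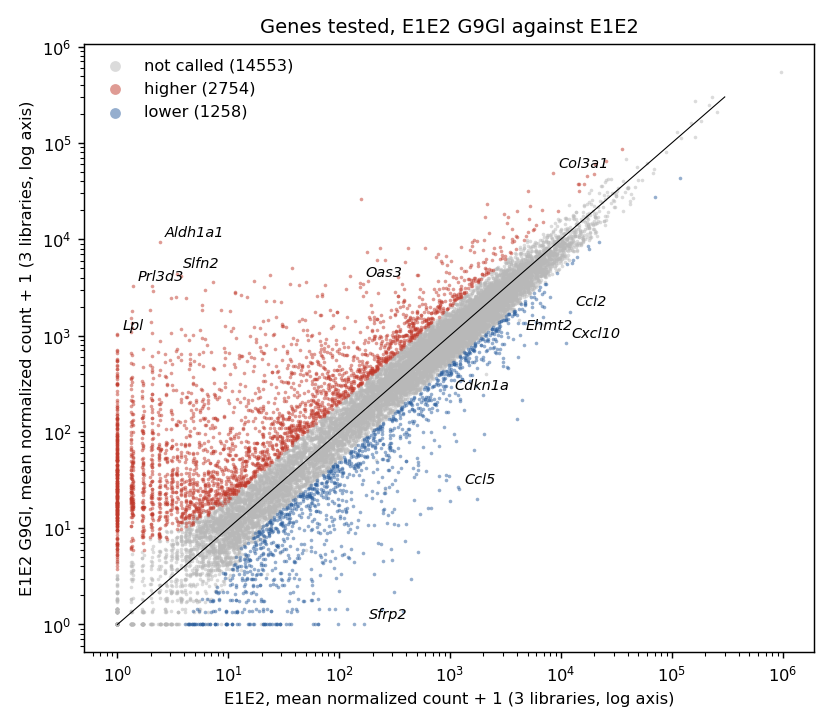
Mean normalized count plus 1 of each of the 18565 tested genes, *E1E2* on the x axis and *E1E2 G9Gl* on the y axis (3 libraries each, log axes, line of equality), with higher genes in red and lower genes in blue. Of the 2754 higher genes, 1312 lie at a mean count of at most 10 in *E1E2*, at the left edge, while the 1258 lower genes spread along the diagonal.

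The largest rises were switches from 0 or near 0 to high expression. *Nxf3*, an X-linked relative of mRNA export factors, had 0 in all 3 *E1E2* libraries and 1058, 1049 and 977 in *E1E2 G9Gl*, at least 991-fold higher when 3 counts over the group are taken as the floor. *Lpl*, which encodes lipoprotein lipase, had 0 in all 3 *E1E2* libraries and 1002, 1056 and 974 in *E1E2 G9Gl*, at least 973-fold higher. *Aldh1a1*, an enzyme of retinoic acid synthesis, had 0.985, 2.21 and 1.03 in *E1E2* and 9363, 9324 and 9372 in *E1E2 G9Gl* (log2 fold change 12.60, SE 0.18, adjusted p = 3.3e-22). These 3 genes were silent in one group and expressed in every library of the other. *Prl3d3*, a placental lactogen gene of the prolactin family, had 0, 1.11 and 0 in *E1E2* and 3064, 3289.6 and 3417 in *E1E2 G9Gl*, a ratio of 9368 (exact 95% counting interval 1681 to 370000). The heparan sulfate sulfotransferase gene *Hs3st1* (546-fold), the tumour suppressor *Fhit* (682-fold), *Serpinb9f* (667-fold) and *Gabra3*, a GABA receptor subunit (430.3-fold), were each at 0 in *E1E2* and at least this many fold higher, as were *Akr1cl* (524-fold), *Slc35f1* (517-fold) and *Tcp11x2* (432-fold). The last of the 12 protein-coding genes with the largest rises was *Ms4a4d*, with 0, 0 and 1.03 in *E1E2* and 1779.9, 1784 and 1863 in *E1E2 G9Gl*. In the step to *6KO1*, the same genes ranged widely: *Hs3st1* rose there by 10.21 and *Nxf3* by 8.37 on the log2 scale, whereas *Aldh1a1* rose by 2.42, to a mean of 5.07, and *Tcp11x2*, at 0.87, was not called.

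Higher genes had a higher gene beside them in the genome more often than the remaining tested genes did. Of 2738 higher genes with a position, 1499 (54.7%) had a higher gene as a direct neighbour among the tested genes, against 20.3% of the other genes. For lower genes the shares were 29.3% and 11.4%. Entries that overlap, such as microRNAs and their host genes, and near copies that share reads were counted as neighbours. Such pairs can be called together, and the shares without them were not computed. Runs of at least 5 neighbouring higher genes numbered 52 and held 362 genes, and 6 runs of lower genes held 35. The runs described here were chosen after their values were seen. In the prolactin run on chromosome 13, 10 genes from *Prl* to *Prl4a1* were higher, with a median log2 fold change of 8.65, and all 10 were also higher in the step to *6KO1*. These genes are normally expressed in pituitary or placenta. Their levels in *6KO1* varied: *Prl3d2* had 565, 664 and 655 there, whereas *Prl3d3* had a mean of 4.79. The difference between the steps was 9.92 for *Prl3d3* (adjusted p = 0.00019). *Prl3d2* had 2.96, 2.21 and 3.1 in *E1E2* and 3980.5, 4145 and 4203 in *E1E2 G9Gl*, and *Prl3d1* 0, 0 and 1.03 in *E1E2* and 1164, 1189.8 and 1233 in *E1E2 G9Gl*. Neighbouring *Prl3d* genes are near copies: 55.6% of the 50-base windows of *Prl3d1*, 68.2% of *Prl3d2* and 67.5% of *Prl3d3* occur in another gene, so their reads may be shared and each gene's own level is uncertain.

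A second run on chromosome 13, from *Serpinb1c* to *Serpinb6d*, held 13 genes of the serine protease inhibitor cluster (median log2 fold change 4.69). *Serpinb9g* had 4.93, 5.54 and 5.17 in *E1E2* and 2853, 3029.5 and 3006 in *E1E2 G9Gl* (log2 fold change 9.12, SE 0.20, adjusted p = 7.7e-21), with 54.8% of its 50-base windows shared. The Schlafen run on chromosome 11, of genes known from lymphocytes and interferon responses, held 9 genes (median 7.81), all of which were also higher in the step to *6KO1*. *Slfn2* had 1.97, 4.43 and 1.03 in *E1E2* and 4371, 4558 and 4181 in *E1E2 G9Gl* (log2 fold change 10.74, SE 0.18, adjusted p = 4e-21). On chromosome 1, 15 neighbouring genes rose in a run that starts at *Dusp23* and holds the Ifi200 family of DNA sensors (median 5.33). *Ifi209* had 14.8, 5.54 and 15.5 in *E1E2* and 2511, 2743 and 2627 in *E1E2 G9Gl*. In a run of *Trim* genes on chromosome 7, 10 of 10 genes rose in both steps. *Trim30a*, an interferon-induced regulator, had 45.3, 54.3 and 48.6 in *E1E2* and 3610.5, 3578 and 3505 in *E1E2 G9Gl*. The 5 *Naip* genes on chromosome 13, whose proteins sense bacterial flagellin and secretion needles, rose in both steps as well, with *Naip2* at 14.8, 22.1 and 17.6 in *E1E2* and 1154, 1249 and 1154 in *E1E2 G9Gl*. All 5 *Naip* genes share windows with other genes, from 19.1 to 50.4%.

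**Figure D2:**
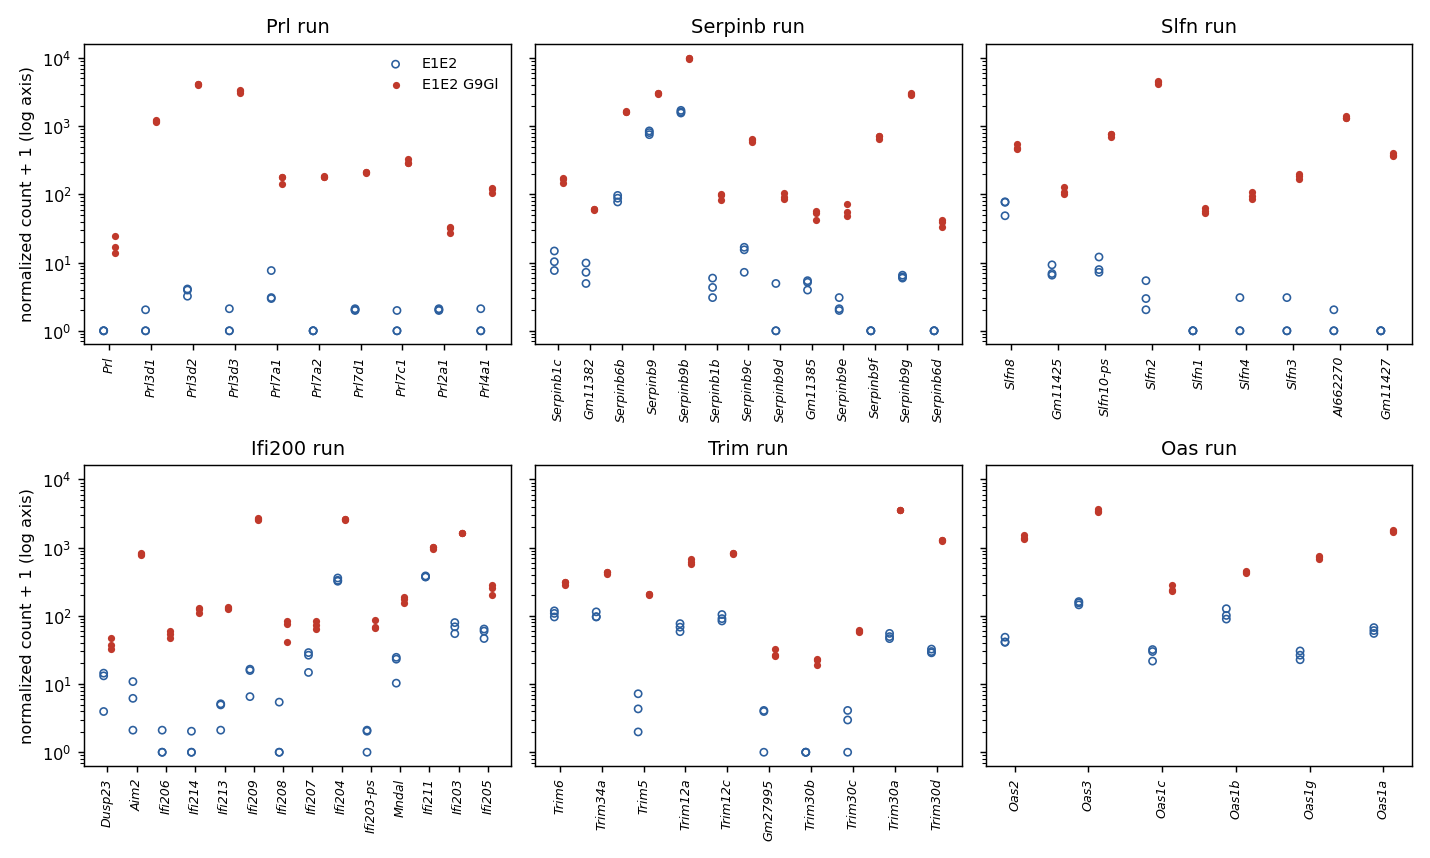
Normalized count plus 1 (log axis) of genes in 6 runs of neighbouring higher genes, in genome order (1 gene of the Ifi200 run is not drawn), with *E1E2* libraries as open blue circles and *E1E2 G9Gl* libraries as filled red circles (3 each). *Prl3d2* and *Slfn2* are near 0 in *E1E2* and among the highest values in *E1E2 G9Gl*, whereas *Serpinb9*, *Serpinb9b*, *Ifi204* and *Ifi211* were already expressed in *E1E2*.

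In each of the runs that follow, at most 3 genes were called in the same direction in the step to *6KO1*. An *Fbxw* run on chromosome 9, of F-box genes of which most are known from oocytes, held 8 genes that rose with a median of 8.62. *Fbxw19* had 0 in all 3 *E1E2* libraries and 421, 373 and 379.5 in *E1E2 G9Gl*, at least 377-fold higher, and a mean of 3.49 in *6KO1*. The difference between the steps was 9.19 for this gene (adjusted p = 0.0036). On chromosome 16, 11 genes from *Gm30790* to *Gm37694* rose around *Mir99ahg*, the host gene of the miR-99a and let-7c microRNAs, and 1 of the 11 was called higher in the step to *6KO1*. *Mir99ahg* had 0, 2.21 and 1.03 in *E1E2* and 3025, 2929 and 2708 in *E1E2 G9Gl*, a ratio of 2787 (exact 95% counting interval 953 to 13520), against a log2 fold change of 2.13 in the other step (difference 9.14, adjusted p = 1.1e-06). Among runs of lower genes were 7 beta-protocadherins (*Pcdhb16* to *Pcdhb22*, median -5.39) and 5 *Zscan4* genes (median -4.98), known from cleavage-stage embryos. *Zscan4f* had 21.7, 31 and 16.5 in *E1E2* and 0, 1.16 and 0 in *E1E2 G9Gl*, and 86.8% of its windows occur in another gene.

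Of the list of nucleic acid sensing and interferon response genes, 17 of 46 tested were higher (37%, against 14.8% of all genes) and 5 lower (10.9%, against 6.78%), with a median of 0.64. The higher genes included cytosolic and endosomal sensors of double-stranded RNA and the antiviral oligoadenylate synthetases. *Ifih1*, the sensor MDA5, had 1764, 1564 and 1585 in *E1E2* and 3985, 3999.6 and 3904 in *E1E2 G9Gl* (log2 fold change 1.27, SE 0.07, adjusted p = 2.8e-13). *Tlr3*, the endosomal sensor, had 248, 229 and 214 in *E1E2* and 989, 1066 and 917 in *E1E2 G9Gl* (log2 fold change 2.10, SE 0.13, adjusted p = 1.3e-12). *Ddx58*, the sensor RIG-I, was 0.70 higher on the log2 scale, below the fold required for a call. The *Oas* genes formed a run of 6 on chromosome 5, all called. *Oas2* had 40.4, 39.9 and 47.5 in *E1E2* and 1512, 1392 and 1335 in *E1E2 G9Gl* (log2 fold change 5.05, SE 0.22, adjusted p = 2.1e-15), *Oas3* 154, 161 and 144 in *E1E2* and 3724, 3382 and 3493 in *E1E2 G9Gl*, and *Oas1a* 54.2, 59.8 and 66.2 in *E1E2* and 1736, 1719 and 1822 in *E1E2 G9Gl* (log2 fold change 4.87, SE 0.15, adjusted p = 5.8e-18), with no overlap between groups for any of the 3. For *Oas1a*, 57.6% of windows are shared with another gene. *Ifi27* had 402, 389.7 and 386 in *E1E2* and 5781, 5768 and 5658 in *E1E2 G9Gl*, and *Usp18*, which limits interferon signalling, 243, 258 and 235 in *E1E2* and 1258, 1243 and 1149 in *E1E2 G9Gl*. *Ifi44* rose as well (log2 fold change 3.12, SE 0.26, adjusted p = 4.8e-10).

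Interferon genes that fell included strongly inducible ones. *Rsad2*, the antiviral enzyme viperin, had 3157, 2378 and 2298 in *E1E2* and 673, 663 and 654 in *E1E2 G9Gl* (log2 fold change -1.98, SE 0.19, adjusted p = 5.4e-09). *Zbp1*, a sensor of Z-form nucleic acid, had 110.3, 122 and 116 in *E1E2* and 12.9, 19.7 and 13 in *E1E2 G9Gl* (log2 fold change -2.92, SE 0.28, adjusted p = 2.9e-09). *Mx1* had 255, 125 and 153 in *E1E2* and 56.1, 60.1 and 50.5 in *E1E2 G9Gl* and *Irf1* 4381, 3424 and 3413 in *E1E2* and 1573, 1674 and 1729 in *E1E2 G9Gl*, with log2 fold changes of -1.68 and -1.17. All *E1E2 G9Gl* libraries lay below all *E1E2* libraries for these 4 genes, and for *Oasl1* (-1.01), the last of the 5. The same 4 genes were also lower in WT than in *E1E2*, with *Rsad2* at 270, 267 and 310 and *Mx1* at 7.46, 3.65 and 6.02 in WT. Type I interferon itself, as *Ifnb1*, was too low to test, with a mean of at most 4.61 in any condition.

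Promoters are shown for a gene of each direction. Promoter windows of 300 bases (250 before to 50 after the start) came from RefSeq on GRCm38.p6 and were matched for 11111 of the 18565 tested genes. The core of the interferon-stimulated response element was searched on both strands as GAAA, 2 bases of any kind and GAAA again, and is in capitals below, with overlapping matches merged.

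*Oas1a*, higher (chr5:120896256-120907521, minus strand for the gene, window chr5:120907476-120907775): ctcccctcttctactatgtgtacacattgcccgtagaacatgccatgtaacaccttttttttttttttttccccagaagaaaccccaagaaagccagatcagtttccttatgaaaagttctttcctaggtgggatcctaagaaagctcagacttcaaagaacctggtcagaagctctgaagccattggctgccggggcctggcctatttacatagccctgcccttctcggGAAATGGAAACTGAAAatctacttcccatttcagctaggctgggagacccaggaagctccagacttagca

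*Rsad2*, lower (window chr12:26456403-26456702, minus strand): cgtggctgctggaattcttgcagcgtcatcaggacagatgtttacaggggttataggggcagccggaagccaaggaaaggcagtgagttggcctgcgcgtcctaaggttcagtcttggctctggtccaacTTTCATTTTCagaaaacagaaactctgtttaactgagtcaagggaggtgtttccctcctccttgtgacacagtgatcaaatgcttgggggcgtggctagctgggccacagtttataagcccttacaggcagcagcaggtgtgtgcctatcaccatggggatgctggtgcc

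The core was in 3.11% of all matched promoters, 5.15% of those of higher genes and 3.37% of those of lower genes. It was in 8 of 11 matched promoters of the higher interferon genes, among them *Oas3*, *Oas1g*, *Ifih1*, *Gbp2* and *Bst2*, and in 1 of 3 of the lower ones. A match describes the letters only. Promoters of higher genes held fewer CpG dinucleotides: 42.2% of the 1154 genes with at most 4 CpGs in the window were higher, 21.7% of the 2470 with 5 to 14, and 9.43% of the 7487 with 15 or more. For lower genes the shares were 6.33%, 8.42% and 5.77%. The classes were not matched for level in *E1E2*. Genes silent there entered the test only through another condition, so these shares describe the tested genes alone.

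Chemokines and inflammatory cytokines fell. Of 19 tested, 13 were lower (68.4%, against 6.78% of all genes) and 3 higher, with a median log2 fold change of -2.11. *Ccl2*, which attracts monocytes, had 14191, 11107 and 10929 in *E1E2* and 1700.1, 1753 and 1849.6 in *E1E2 G9Gl* (log2 fold change -2.77, SE 0.45, adjusted p = 1e-05). *Cxcl10*, which attracts T cells, had 13465, 10018 and 10021 in *E1E2* and 765, 854 and 877 in *E1E2 G9Gl* (log2 fold change -3.75, SE 0.28, adjusted p = 6.4e-11), and *Ccl5* 1088, 1268 and 1244 in *E1E2* and 24.8, 22 and 25.9 in *E1E2 G9Gl* (log2 fold change -5.62, SE 0.37, adjusted p = 5.1e-12). *Cxcl1*, a neutrophil attractant, had 2041, 1412 and 1463 in *E1E2* and 58.3, 69.4 and 63.5 in *E1E2 G9Gl* (log2 fold change -4.69, SE 0.60, adjusted p = 4.2e-07). *E1E2* replicate 1 was the highest of the 3 for *Ccl2*, *Cxcl10* and *Cxcl1*, and all *E1E2 G9Gl* libraries lay far below. The *E1E2* level was itself above WT, where *Ccl2* had 1283, 1991 and 1376, *Cxcl10* 1038, 1563 and 1161 and *Cxcl1* 48, 76.7 and 41.1. Cultures of *E2* varied, with *Ccl2* at 10731, 946 and 9720.5 and *Cxcl1* at 1148, 43 and 827. *Csf2*, the growth factor GM-CSF, had 32.5, 16.6 and 14.5 in *E1E2* and 0 in all 3 *E1E2 G9Gl* libraries, at least 18.4-fold lower. *Lif* had 2369, 1738 and 1848 in *E1E2* and 602, 562 and 629 in *E1E2 G9Gl* (log2 fold change -1.73, SE 0.14, adjusted p = 2.7e-10). *Icam1*, an adhesion molecule, was among the 12 protein-coding genes with the largest falls, with 385, 250.2 and 253 in *E1E2* and 3.24, 1.16 and 6.48 in *E1E2 G9Gl*. The 3 higher genes were *Cxcl12*, the stromal homing chemokine, *Ccl9* and *Cxcl14* (log2 fold change 3.86), and 3 genes were not called. *Cxcl12* had 314, 326 and 407 in *E1E2* and 1919, 1934 and 2039 in *E1E2 G9Gl* (log2 fold change 2.49, SE 0.15, adjusted p = 1.1e-12). *Ccl9* had 56.2, 34.3 and 46.5 in *E1E2* and 484, 489 and 501 in *E1E2 G9Gl*.

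The NF-kB consensus, searched by its published form on both strands, is in capitals in the promoters of these chemokine genes.

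*Cxcl1*, lower (window chr5:90890995-90891294, plus strand): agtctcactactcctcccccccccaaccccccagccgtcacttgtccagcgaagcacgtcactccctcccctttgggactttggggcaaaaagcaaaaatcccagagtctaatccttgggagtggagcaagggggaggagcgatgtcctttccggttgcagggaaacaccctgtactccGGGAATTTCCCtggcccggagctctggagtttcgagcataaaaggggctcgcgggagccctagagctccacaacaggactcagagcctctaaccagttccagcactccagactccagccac

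*Cxcl10*, lower (window chr5:92348840-92349139, minus strand): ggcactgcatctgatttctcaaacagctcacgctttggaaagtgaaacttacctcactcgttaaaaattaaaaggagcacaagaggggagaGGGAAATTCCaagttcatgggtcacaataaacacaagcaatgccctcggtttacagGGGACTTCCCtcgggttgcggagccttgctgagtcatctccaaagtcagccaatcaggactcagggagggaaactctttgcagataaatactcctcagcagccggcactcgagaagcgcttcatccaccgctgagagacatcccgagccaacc

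The match in *Cxcl1* reads on both strands. The consensus was in 5.09% of all matched promoters, 5.55% of those of higher genes and 8.98% of those of lower genes. Of 7 matched promoters of lower cytokine genes, 3 held it (*Cxcl1*, *Cxcl2* and *Cxcl10*), as did 1 of 3 of the higher ones (*Ccl9*).

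Targets of p53 were also lower: 11 of 25 tested targets and cyclin-dependent kinase inhibitors fell (44%, against 6.78% of all genes) and *Cdkn2c* rose (1.01), with a median of -0.67. The call for *Cdkn2c* was lost without *E1E2* replicate 2 (0.976), *E1E2* replicate 3 (0.993) or *E1E2 G9Gl* replicate 2 (0.995). *Cdkn1a*, the cell cycle inhibitor p21, had 949, 993 and 963 in *E1E2* and 243, 234 and 242 in *E1E2 G9Gl* (log2 fold change -2.01, SE 0.07, adjusted p = 1.3e-17). *Mdm2*, the ubiquitin ligase for p53, had 6996, 7080.3 and 7106 in *E1E2* and 2912, 2740.4 and 2838 in *E1E2 G9Gl* (log2 fold change -1.32, SE 0.04, adjusted p = 2.8e-17), and *Ccng1* 6524, 6251 and 6458 in *E1E2* and 2159.6, 2195 and 2214 in *E1E2 G9Gl* (log2 fold change -1.55, SE 0.07, adjusted p = 2.2e-15). *Trp53inp1* had 1209.8, 1260 and 1251 in *E1E2* and 216, 205 and 228 in *E1E2 G9Gl*, and *Pmaip1*, which encodes the pro-apoptotic protein Noxa, 180.3, 168 and 174 in *E1E2* and 20.5, 26.6 and 15.5 in *E1E2 G9Gl*. The groups were apart for each of these 5 genes, as they were for 1252 of all 1258 lower genes. The *E1E2* level was itself above WT for all of them but *Pmaip1*. In WT, *Cdkn1a* had 217, 204 and 208 and *Mdm2* 3282, 3193 and 3297. *Ccng1* had 2601, 3438 and 2901 there, and *Trp53inp1* 214, 269 and 249. For these genes *E1E2 G9Gl* lay nearer to WT than *E1E2* did. *Pmaip1* had 354, 489 and 342 in WT, above both groups. *Trp53* itself, with 2898, 2811 and 3086 in *E1E2* and 1539, 1385 and 1602 in *E1E2 G9Gl*, was -0.96 on the log2 scale and missed the call, which it reached without *E1E2 G9Gl* replicate 3 (-1.0004). *Cdkn2a*, which encodes p16 and p19Arf, differed by 0.20. Of 29 cell cycle genes, 2 were lower (*Ccnd2*, -1.72, and *Cdk6*, -1.15), a share (6.9%) near the 6.78% of all genes, with a median of -0.10.

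Of 44 collagen genes, the structural proteins of the extracellular matrix, 28 could be tested and 13 were higher (46.4%, against 14.8% of all genes), with a median of 0.83. *Col3a1*, a fibrillar collagen, had 8997, 8577 and 7900.4 in *E1E2* and 48326, 49210 and 48322 in *E1E2 G9Gl* (log2 fold change 2.52, SE 0.07, adjusted p = 9.8e-19). *Col28a1*, a minor collagen, had 0, 5.54 and 2.07 in *E1E2* and 611, 600.1 and 593 in *E1E2 G9Gl*. Collagens this low in *E1E2* entered the test only through another condition, so the share describes the tested collagens alone. With a mean normalized count above 100 required, 7 were higher. Among 19 tested fibroblast markers, 7 were higher (36.8%, against 14.8%) and 2 lower (10.5%, against 6.78%). *Thy1*, a surface glycoprotein, had 44.3, 47.6 and 55.8 in *E1E2* and 426, 389.7 and 419.7 in *E1E2 G9Gl* (log2 fold change 3.06, SE 0.16, adjusted p = 8e-14), *Acta2*, smooth muscle actin, 1628, 1622 and 1699 in *E1E2* and 7346, 7128 and 7481 in *E1E2 G9Gl*, and *S100a4* 1762, 1818 and 1690.1 in *E1E2* and 9151, 9922 and 9525 in *E1E2 G9Gl*. *Pdgfra*, a growth factor receptor, had 93.6, 131 and 121 in *E1E2* and 14, 11.6 and 15.5 in *E1E2 G9Gl* (log2 fold change -3.06, SE 0.22, adjusted p = 3e-11), and *Dcn*, the proteoglycan decorin, 90.6, 106 and 80.6 in *E1E2* and 0, 2.31 and 3.89 in *E1E2 G9Gl*. So the markers moved in both directions, and *Lum* was too low to test.

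Genes of other lineages were among the rises. Of 38 neuronal genes listed, 15 could be tested, of which 9 were higher (60%, against 14.8% of all genes) and 4 lower (26.7%, against 6.78%). The rest were too low to test, and a gene silent in *E1E2* entered the test only through a condition where it was expressed, so these shares, and those of the lists that follow, describe the tested genes alone. *Map2*, a dendritic microtubule protein, had 6.9, 7.75 and 3.1 in *E1E2* and 699, 649 and 674 in *E1E2 G9Gl* (log2 fold change 6.81, SE 0.29, adjusted p = 2.1e-15). *Snap25* and *Syt4*, of the synaptic vesicle machinery, were at 0 in all *E1E2* libraries and at least 55.5-fold and 56.6-fold higher. *Gap43*, a growth cone protein, went the other way, with 926, 926 and 913 in *E1E2* and 44.2, 23.1 and 37.6 in *E1E2 G9Gl* (log2 fold change -4.71, SE 0.17, adjusted p = 4.7e-17). Of 24 adipogenic, myogenic and skeletal genes, 13 could be tested, of which 5 were higher (38.5%) and 1 lower (7.69%), with a median of -0.11. *Pparg*, the regulator of fat cell differentiation, had 64, 63.1 and 58.9 in *E1E2* and 375, 323 and 348 in *E1E2 G9Gl*, *Tnnt2*, cardiac troponin T, 22.7, 31 and 27.9 in *E1E2* and 446, 377 and 447 in *E1E2 G9Gl*, and *Sox9*, a cartilage factor, 108, 93 and 125 in *E1E2* and 9.71, 12.7 and 13 in *E1E2 G9Gl*. The markers of other cell types that rose were low: *Ptprc* (CD45) had 0, 1.11 and 0 in *E1E2* and 45.3, 47.4 and 50.5 in *E1E2 G9Gl*, *Cd3e* 0 in all 3 *E1E2* libraries and 37.8, 40.5 and 47.9 in *E1E2 G9Gl*, and *Krt14* 7.88, 5.54 and 5.17 in *E1E2* and 132, 109.8 and 105 in *E1E2 G9Gl*. Their part in these results was not tested.

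Of 60 germline and meiosis genes listed, 20 could be tested and 7 were higher (35%, against 14.8% of all genes), with *Spo11* lower (5%, against 6.78%). *Tex101*, a germ cell surface protein, had 0.985, 0 and 0 in *E1E2* and 188, 175 and 194 in *E1E2 G9Gl*. *Tex15* had 5.91, 4.43 and 5.17 in *E1E2* and 146, 146 and 124 in *E1E2 G9Gl* (log2 fold change 4.71, SE 0.24, adjusted p = 5.9e-14), and *Stag3*, a meiotic cohesin subunit, 58.1, 62 and 78.6 in *E1E2* and 246, 276 and 268 in *E1E2 G9Gl* (log2 fold change 1.99, SE 0.19, adjusted p = 2.6e-09). The median of the tested genes was 0.91. Olfactory and vomeronasal receptors were rarely expressed in any condition: 39 of 1352 could be tested, of which 20 were higher (51.3%, against 14.8% of all genes), with a median of 2.999, or 2.39 when genes without counts in one group were placed at their bound. These receptors were low, and with a mean normalized count above 100 required, 1 was called. The summed level of the tested receptors was 121.2 to 150.6 in *E1E2* and 2465 to 2516 in *E1E2 G9Gl*.

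Among 30 tested imprinted genes, 5 were higher (16.7%, near the 14.8% of all genes) and 4 lower (13.3%, against 6.78%). *Ndn*, expressed from the paternal allele, had 0, 1.11 and 0 in *E1E2* and 491, 494 and 535 in *E1E2 G9Gl*, a ratio of 1458 (exact 95% counting interval 261 to 57610), and *Peg12*, also on chromosome 7, 292, 339.9 and 306 in *E1E2* and 9.71, 11.6 and 9.07 in *E1E2 G9Gl* (log2 fold change -4.93, SE 0.15, adjusted p = 6.1e-18). The growth inhibitor *Cdkn1c* had 1637, 1581 and 1493 in *E1E2* and 375, 410.5 and 383 in *E1E2 G9Gl*, *Phlda2*, which limits placental growth, 39.4, 36.5 and 46.5 in *E1E2* and 2.16, 1.16 and 1.3 in *E1E2 G9Gl*, and the retrotransposon-derived *Peg10* 2556, 2572 and 2493 in *E1E2* and 655, 664 and 714 in *E1E2 G9Gl*. Of 58 clustered protocadherins, 35 could be tested, of which 11 were higher (31.4%, against 14.8%), all of the gamma cluster, and 10 lower (28.6%, against 6.78%), 8 of them of the beta cluster. *Pcdhb22* had 95.6, 104 and 109.6 in *E1E2* and 2.16, 2.31 and 2.59 in *E1E2 G9Gl* (log2 fold change -5.39, SE 0.22, adjusted p = 1.2e-15). Of 29 tested Hox genes, 5 were higher (17.2%) and 1 lower (3.45%), shares near those of all genes: *Hoxa11*, a limb patterning gene, had 282, 260.2 and 304 in *E1E2* and 777, 772 and 758 in *E1E2 G9Gl*, and *Hoxd8* 5.91, 12.2 and 11.4 in *E1E2* and 0 in all 3 *E1E2 G9Gl* libraries. Zinc finger (*Zfp*) genes were near the background, with 41 of 338 higher (12.1%) and 21 lower (6.21%). *Zfp667* had 65, 48.7 and 55.8 in *E1E2* and 0 in all 3 *E1E2 G9Gl* libraries, at least 48.6-fold lower. Of 25 DNA methylation and Polycomb genes, *Tet1*, a 5-methylcytosine dioxygenase, fell (289.6, 329.9 and 315 in *E1E2* and 73.4, 43.9 and 68.6 in *E1E2 G9Gl*; log2 fold change -2.33, SE 0.15, adjusted p = 4.3e-12), and *Ring1* (1.18) and *Cbx8* (1.07) rose, shares of 4% and 8% that were below those of all genes (6.78% and 14.8%). Of 21 Mage genes, 8 could be tested and 2 were higher (25%, against 14.8%).

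The largest falls were of genes that *E1E2* cells expressed at moderate levels. *Sfrp2*, a secreted modulator of Wnt signalling, had 148, 173 and 177 in *E1E2* and 0 in all 3 *E1E2 G9Gl* libraries, at least 141-fold lower. *Cdyl2*, a chromodomain protein, had 387, 372 and 375 in *E1E2* and 0, 1.16 and 0 in *E1E2 G9Gl*, and *Asap2* 248, 227 and 245 in *E1E2* and 0, 0 and 1.3 in *E1E2 G9Gl*. *Grem1*, a BMP antagonist, had 418, 569 and 535 in *E1E2* and 6.47, 3.47 and 3.89 in *E1E2 G9Gl* (log2 fold change -6.72, SE 0.22, adjusted p = 1.4e-17). Other large falls were of *Gjb2* (-7.92), *Tbc1d9* (-7.84), *Angptl7* (-7.73), *Neurl3* (-6.38), *Ak4* (-6.09) and *Setbp1* (-5.87). *Gjb2*, *Asap2*, *Angptl7*, *Tbc1d9*, *Ak4*, *Setbp1* and *Grem1* were also lower in the step to *6KO1*, *Neurl3* (0.13) and *Icam1* (3.19, adjusted p = 0.032) were not called, and *Sfrp2* (2.07) and *Cdyl2* (1.57) were higher. In 10 genes with a mean of at least 30 in *E1E2*, chosen after their values were seen, no *E1E2 G9Gl* library had a count. All 10 had counts in every *6KO2* library, although *6KO2* was made from the *E1E2 G9Gl* clone by targeting *Suv39h1* and *Suv39h2*. *Sfrp2* had a mean of 164 there. These levels are given side by side, since *6KO2* lies outside the comparison.

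Repeat elements were higher as a group. Of 1216 elements tested, 408 were higher (33.6%) and 11 lower (0.905%), against a median log2 fold change of 0.65. Repeats were scaled by the gene counts, so this median is a shift relative to genes. Scaling by the repeats alone moved it by -0.715 and gave 218 elements higher and 80 lower. TEtranscripts counts sum over all copies of an element and carry the error of dividing reads that map to many places. Summed normalized counts of LTR elements were 883418, 898172 and 897138 in *E1E2* and 2373713, 2287818 and 2276360 in *E1E2 G9Gl*, a ratio of 2.59. Of these totals, the single element *RLTR6-int* held 23179, 22838 and 22506 in *E1E2* and 704070, 670360 and 631760 in *E1E2 G9Gl*. The ratio without it was not computed and would be smaller. For LINEs the ratio was 2.43, for satellites 1.24 and for DNA transposons 1.17 (0.754 and 0.711 when scaled by repeats alone), all with no overlap between groups (two-sided exact permutation p = 0.1, the smallest that 3 against 3 libraries allow). SINEs had a ratio of 0.966, with overlapping groups (exact permutation p = 0.3).

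By family, ERVK totals, which include the IAP and MMERVK10 retroviruses, rose (log2 fold change 1.74, SE 0.09, adjusted p = 1.1e-14), as did ERV1 totals (log2 fold change 1.46, SE 0.12, adjusted p = 1.2e-10). The ERV1 value rested on single elements: it was 0.34, below the fold required, without *RLTR6-int*, and 2.39 without *MMVL30-int*, the most abundant ERV1 element. Without *MMERVK10C-int*, its most abundant element, ERVK differed by 1.81. The ERVL (0.69) and ERVL-MaLR (0.69) totals were higher by less than the fold required, and lay at -0.0262 and -0.0196 when scaled by repeats alone. L1 elements, the active mouse LINEs, rose (log2 fold change 1.29, SE 0.11, adjusted p = 1.9e-10). The Gypsy total rose by 3.84, or by 1.76 without *MamGypsy2-I*, which held 82.7% of the counts of this family. Satellites differed by 0.30 (-0.41 when scaled by repeats alone), Alu/B1 SINEs by 0.07 (-0.64) and B2 SINEs by -0.29 (-0.999). Counting elements, 152 of 270 ERVK (56.3%), 111 of 226 L1 (49.1%), 49 of 106 ERV1 (46.2%), 28 of 94 ERVL (29.8%) and 14 of 91 ERVL-MaLR elements (15.4%) were higher, against 33.6% of all elements. In narrower groups, 61 of 64 young mouse L1 (L1Md) elements, 13 of 13 MMERVK10 and RLTR10 elements and 20 of 25 IAP elements were higher, whereas 1 of 8 MERVL and MT2 elements was.

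**Figure D3:**
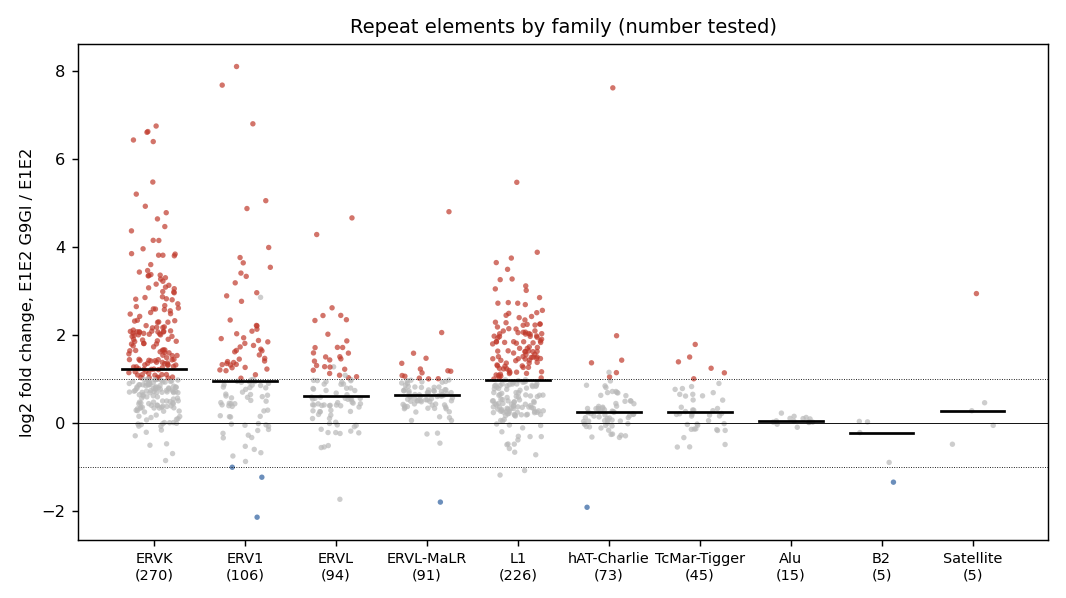
Log2 fold change of each tested repeat element in *E1E2 G9Gl* against *E1E2*, by family, with the number tested under each name, the family median as a black bar, called elements in red (higher) or blue (lower) and dotted lines at the fold required for a call. Most ERVK, ERV1 and L1 elements lie above 0 and 152 of 270 ERVK elements are called higher. No Alu SINE is called, and 1 of 5 B2 SINEs, *B2_Mm1a*, is called lower.

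Single elements varied widely within their families. *MURVY-int*, the internal part of a retrovirus first described on the mouse Y chromosome, had normalized counts of 88.7, 106 and 92 in *E1E2* and 11172, 10641 and 10032 in *E1E2 G9Gl* (log2 fold change 6.80, SE 0.13, adjusted p = 1.1e-38). Counts on Y-linked genes were 0 in all 6 libraries. *IAP1-MM_I-int*, an IAP provirus, had 248, 272 and 267 in *E1E2* and 25499, 26105 and 25803 in *E1E2 G9Gl* (log2 fold change 6.62, SE 0.13, adjusted p = 2.6e-38), and *ETnERV-int*, of the early transposon family, 344, 399.7 and 316 in *E1E2* and 16376, 15750 and 14934 in *E1E2 G9Gl* (log2 fold change 5.47, SE 0.13, adjusted p = 5.9e-35). The ERV1 element *RLTR6-int* had 23179, 22838 and 22506 in *E1E2* and 704070, 670360 and 631760 in *E1E2 G9Gl* (log2 fold change 4.87, SE 0.17, adjusted p = 2.6e-28), which took it from 0.074 to 0.0757% of all counts to 1.97 to 2.19%. Its companion LTR *RLTR6B_Mm* had 1145, 1034 and 986 in *E1E2* and 35384, 36236 and 33267 in *E1E2 G9Gl*. The abundant *MMERVK10C-int* had 69227, 70677 and 68147 in *E1E2* and 204160, 211200 and 213620 in *E1E2 G9Gl* (log2 fold change 1.60, SE 0.09, adjusted p = 2.2e-20), *IAPEz-int* 18155, 17852 and 17537 in *E1E2* and 98663, 101640 and 99363 in *E1E2 G9Gl* (log2 fold change 2.48, SE 0.09, adjusted p = 5.6e-27), and *MMERVK10D3_I-int* 2743, 2932 and 3103 in *E1E2* and 42240, 42152 and 41992 in *E1E2 G9Gl*. Murine leukemia virus sequences, as *MuLV-int*, had 64835, 61965 and 61038 in *E1E2* and 168720, 147440 and 155510 in *E1E2 G9Gl* (log2 fold change 1.33, SE 0.11, adjusted p = 2.4e-15). Among L1 elements, *L1MdF_IV_5end_ORF1only* had 170.4, 215 and 190.2 in *E1E2* and 2819, 2910.4 and 2726 in *E1E2 G9Gl* (log2 fold change 3.88, SE 0.12, adjusted p = 2.3e-30), *L1MdA_VI* 4567, 4602 and 4424 in *E1E2* and 19090, 18075 and 18060 in *E1E2 G9Gl* and *L1MdF_IV* 6462, 6177 and 6439.8 in *E1E2* and 21387, 19947 and 20589 in *E1E2 G9Gl*. Scaled by repeats alone, *MMERVK10C-int* (0.88), *MuLV-int* (0.61) and *L1MdF_IV* (0.985) missed the call. For each of these elements all *E1E2 G9Gl* libraries lay above all *E1E2* libraries.

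Elements that fell were few. *MMVL30-int*, a VL30 retroelement that is derepressed when *Eset1* is lost, had 218240, 233860 and 230780 in *E1E2* and 111830, 112660 and 116650 in *E1E2 G9Gl* (log2 fold change -1.001). Its fold lay at the threshold, and the call was lost without *E1E2* replicate 2 (-0.982), *E1E2* replicate 3 (-0.993), *E1E2 G9Gl* replicate 1 (-0.989) or *E1E2 G9Gl* replicate 2 (-0.994). The LTR *RLTR6_Mm* had 11946, 12432 and 12509 in *E1E2* and 4929.8, 5488 and 5332 in *E1E2 G9Gl* (log2 fold change -1.23, SE 0.16, adjusted p = 5.5e-09). The B2 SINE *B2_Mm1a* had 80108, 82981 and 79218 in *E1E2* and 29755, 31871 and 34083 in *E1E2 G9Gl* (log2 fold change -1.34, SE 0.11, adjusted p = 1.2e-14). U2, *MER34B-int* and *SSU-rRNA_Hsa* were called lower although their groups overlapped, with *E1E2* replicate 2 the highest library for each. Without this library U2 differed by 0.26, and the calls were 2750 genes higher and 1236 lower, and 408 elements higher and 9 lower. The major satellite *GSAT_MM*, a Suv39h target, had 534, 621 and 603 in *E1E2* and 461, 397 and 403 in *E1E2 G9Gl* (log2 fold change -0.48, SE 0.12, adjusted p = 0.00035), and the satellite *MMSAT4* 3691, 3873 and 3829 in *E1E2* and 5090.5, 5333 and 5279 in *E1E2 G9Gl*, short of a call and reversed when scaled by repeats alone (-0.25). *SYNREP_MM* was the only one of 5 tested satellites called, with 46.3, 42.1 and 53.8 in *E1E2* and 446, 348 and 299 in *E1E2 G9Gl* (log2 fold change 2.94, SE 0.18, adjusted p = 8.3e-20).

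Across the 8 conditions, several elements peaked in *E1E2 G9Gl*. *RLTR6-int* had a mean normalized count of 668730 in *E1E2 G9Gl*, against 562 in WT and 36921 in *E1 S1S2*, the highest of the other conditions. *MURVY-int* had 162 in *6KO1* and 508 in *6KO2*, against 10615 in *E1E2 G9Gl*. *IAPEz-int* differed from this order, with 327900 in *6KO1*, 207390 in *6KO2* and 99887 in *E1E2 G9Gl*. *GSAT_MM* was highest in the conditions without Suv39h enzymes, with a mean of 28024 in *6KO1*, 11073 in *6KO2* and 4512 in *E1 S1S2*.

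**Figure D4:**
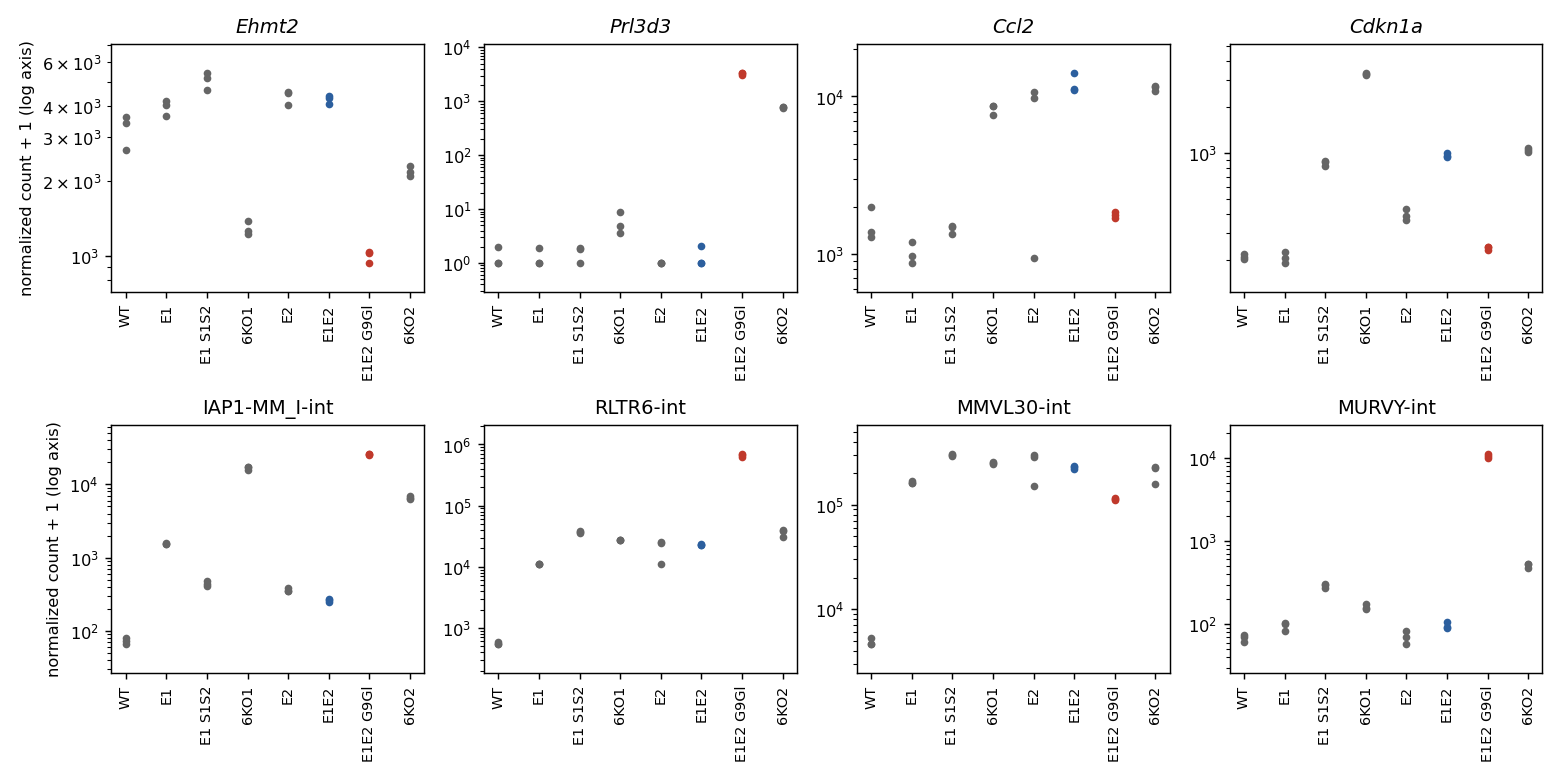
Normalized count plus 1 (log axis) of 4 genes and 4 repeat elements in all 24 libraries, 3 per condition, with *E1E2* in blue, *E1E2 G9Gl* in red and the other conditions in grey. *Prl3d3*, *RLTR6-int* and *MURVY-int* are highest in *E1E2 G9Gl*, *Ehmt2* is lower in the 3 conditions made by targeting it than in the other 5, and *Ccl2* and *Cdkn1a* are lower in *E1E2 G9Gl* than in *E1E2*.

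The step from *E1 S1S2* to *6KO1* was set beside these values. It had 3025 genes higher (16.3%) and 932 lower (5.02%), and 289 repeat elements higher (23.8%) and 7 lower (0.576%). Of the 2754 genes higher in *E1E2 G9Gl*, 1449 (52.6%, or 47.9% of the genes higher in the other step) were higher in both steps, and 134 were lower in the other. Of the 1258 lower genes, 291 (23.1%, or 31.2% of the other list) were lower in both and 175 were higher in the other. Of the 408 higher elements, 244 (59.8%, or 84.4%) were higher in both. As a description, the log2 fold changes of the steps correlated across all 18565 genes with Pearson's r = 0.494 and across 1216 elements with r = 0.674. Genes are not independent, and the points share the libraries of each step.

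The size of the step differed between the 2 backgrounds for 3262 genes, 1548 with a higher value in the step to *E1E2 G9Gl* (8.34%) and 1714 with a lower one (9.23%), and for 158 elements, 118 higher (9.7%) and 40 lower (3.29%). In this test 14 of 19 cytokine genes were lower and 2 higher, and in the step to *6KO1* 11 of 19 rose (median 1.33). *Ccl2* rose there from a mean of 1441 to 8338 (log2 fold change 2.53; difference -5.31, adjusted p = 2.5e-07). Of 25 p53 targets and inhibitors, 13 were lower in the difference, and 9 rose in the step to *6KO1* (median 0.51). *Cdkn1a* went from 861 to 3283 there (difference -3.95, adjusted p = 5.9e-20). Of 46 interferon genes, 18 were lower in the difference, and 28 rose in the step to *6KO1* (median 1.45). For *Oas2* the other step was 4.14 and the difference 0.91 (adjusted p = 0.02), and for *Ifi27* 3.85 and 0.02 (adjusted p = 0.93), neither of them called. *Usp18* rose by 3.62 there, and *Mx1*, which fell in the step to *E1E2 G9Gl*, rose by 1.99.

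**Figure D5:**
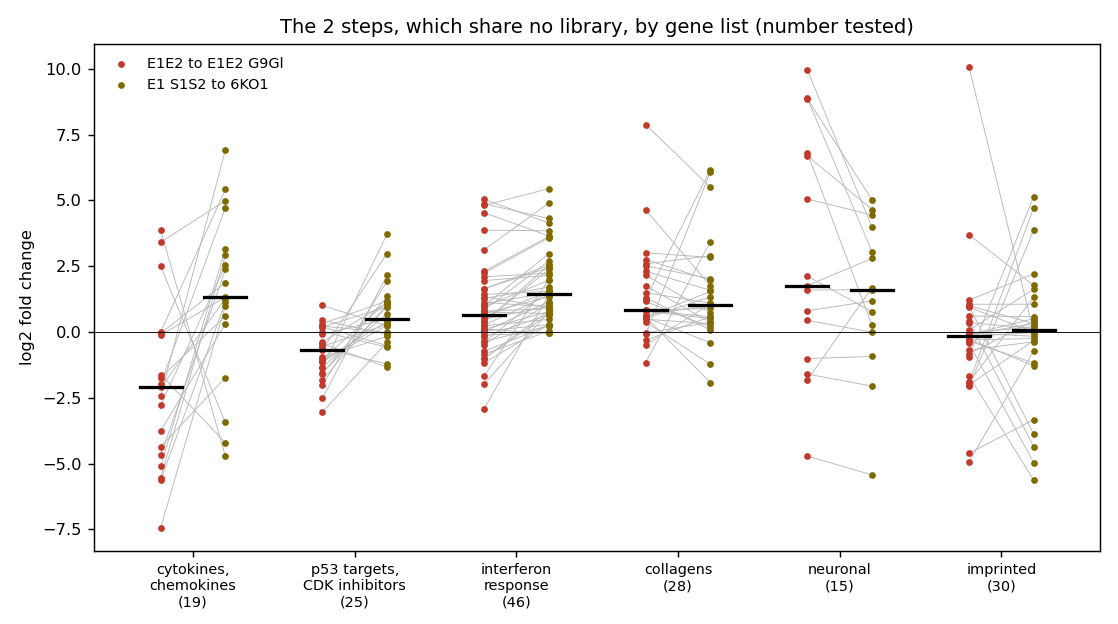
Log2 fold change of each tested member of 6 gene lists in the step from *E1E2* to *E1E2 G9Gl* (red) and from *E1 S1S2* to *6KO1* (ochre), joined per gene, with list medians as black bars. Cytokine and p53 list medians are -2.11 and -0.67 in the first step and 1.33 and 0.51 in the second, while collagen medians are 0.83 and 1.04.

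In the other step 14 of 28 collagens were higher and 2 lower (median 1.04), and *Col1a1* fell there (-1.92) and differed between the steps by 2.495 (adjusted p = 1.5e-09). The protocadherins differed: 15 of 35 had a higher value in the step to *E1E2 G9Gl*. *Map2* (6.55, adjusted p = 0.00015) rose more in the step to *E1E2 G9Gl*. *Ndn* had a mean of 0 in both *E1 S1S2* and *6KO1*, and its difference could not be estimated. Among repeat elements, the largest differences named here were of *MURVY-int* (7.64, adjusted p = 6e-36), *RLTR6B_Mm* (5.41) and *RLTR6-int* (5.29) with higher values in the step to *E1E2 G9Gl*, and of *GSAT_MM* (-3.11), *MMERGLN-int* (-1.73) and *IAPEz-int* (-1.67) with lower ones.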

How the data were processed

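Total RNA from MEF cultures was sequenced by the authors as stranded, paired-end libraries. Per the labels and the paper's methods, the authors trimmed reads with cutadapt 1.8.1, aligned them to GRCm38 with STAR 2.5.2b and used TEtranscripts for counting. The authors deposited raw counts, as whole numbers, for 47937 genes and 1445 repeat elements; 1 malformed entry was left out. Whether counting used strand is not given in the sources used here, so a gene and an antisense partner may share reads. Multi-copy repeats and near-identical gene copies carry the error of dividing reads.

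Genes and elements were kept with edgeR's filterByExpr by condition. TMM factors from genes served genes and repeats. All 24 libraries entered 1 fit by condition with edgeR 4.0.16 in R 4.3.3 (limma 3.58.1), using the two-sided quasi-likelihood test, and p-values were Benjamini-Hochberg adjusted over the 18565 genes, 1216 elements or 58 families tested. Calls required a 1-unit log2 fold change with adjusted p no greater than 0.01. Class totals were compared by exact permutation. Floors and ratios at low counts use 3 counts over the group or exact 95% intervals, and cover counting error only. Symbols were matched for 47224 gene identifiers. The scripts were tested on simulated data.

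Named genes were the H3K9 KMT genes, the 12 protein-coding genes with the largest rise and fall whose libraries did not overlap and whose higher mean was at least 100, and members of gene lists; named elements followed a like rule. Some genes that meet the rule are not reported here. The members and lists were chosen with earlier results of these data known. Alternatives were DESeq2 1.42.0, RLE and other factors, low-count filters, no fold minimum, the 6 libraries alone, a replicate block, totals without the largest element, chromosome medians removed, and each library left out.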

Additional observations from a re-analysis of the deposited data

Results flagged for a closer look

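The step that adds loss of *G9a* and *Glp* differed with the background (with or without Suv39h enzymes) for 3262 genes and 158 repeat elements in edgeR's test of the difference. Of the genes and elements named by rule or in the text, 12 were called in opposite directions in the 2 steps. Values are the log2 fold change of the step to *E1E2 G9Gl* minus that of the step to *6KO1*. They were -12.44 for *Sfrp2*, -11.09 for *Cdyl2*, -7.06 for *Cxcl1*, -6.76 for *Ccl5*, -6.71 for *Zscan4f* and -5.31 for *Ccl2*. They were -4.68 for *Trp53inp1*, -4.33 for *Zbp1*, -3.95 for *Cdkn1a*, -3.67 for *Mx1* and -3.23 for *Peg10*, all lower in *E1E2 G9Gl* and higher in *6KO1*. *Cxcl12* alone went the opposite way, at 5.92. The step to *6KO1* also adds loss of *Eset2*, and each condition is 1 clone, so these differences cannot be told apart from clone effects. Groups of 3 libraries were not tested for outlying samples.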

How the results depend on the processing

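With no fold change minimum, 5320 genes were higher and 4592 lower, 691 elements higher and 30 lower, and the step differed for 7164 genes and 298 elements. With a mean normalized count above 100, 980 genes were higher and 607 lower, and 263 elements higher and 5 lower, with 8 cytokine genes lower and 3 neuronal, 7 collagen, 1 germline and 1 receptor gene higher (22 collagen genes with no fold change minimum). DESeq2 called 7 elements lower, and its size factors gave class ratios of 2.47 for LINEs and 1.26 for satellites. Factors from repeats alone, which moved the median of all elements by -0.715, called 218 elements higher and 80 lower. Class ratios became 1.58 for LTR elements, 1.48 for LINEs, 0.589 for SINEs, 0.711 for DNA transposons and 0.754 for satellites (DNA and satellites reversed). Family values became -0.0262 for ERVL, -0.0196 for ERVL-MaLR, -0.64 for Alu and -0.41 for satellites, all reversed, and -0.999 for B2. Reversed elements were URR1A (-0.46), URR1B (-0.54), RCHARR1 (-0.38), B3 (-0.67), ID_B1 (-0.68), MMSAT4 (-0.25), IMPB_01 (-0.43) and MMERGLN-int (-0.11). B2 passed the p threshold with the 6 libraries alone (-0.28), factors from genes and repeats (-0.31) and without its largest element (-0.47). Satellites lost it without *E1E2* replicate 1 (0.29) and without MMSAT4 (0.22, class ratio 1.17), and the LTR ratio was 3.31 without MMVL30-int. The LTR ratio without RLTR6-int was not computed. ERV1 missed the call without RLTR6-int (0.34), an alternative chosen after seeing the data. The cause was not tested.

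Leaving out each library gave 2680 to 2752 genes higher and 1184 to 1236 lower, 401 to 426 elements higher and 9 to 11 lower, and a differing step for 3085 to 3162 genes and 145 to 161 elements. Satellite totals ranged from 0.29 to 0.31, and U2 from -6.61 to 0.26. Removing chromosome medians, an alternative chosen after seeing the data, gave 2763 genes higher and 1152 lower. Replicate numbers did not pair the libraries (correlation of deviations -0.00711, 0.0262 and -0.0212), and with a replicate block 2745 genes were higher and 1244 lower, and 409 elements higher and 9 lower.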

Other observations

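Called genes were unevenly spread over chromosomes. The median log2 fold change of genes with a mean normalized count over 200 was 0.26 on chromosome 10 and 0.21 on X, against -0.25 on chromosome 11, -0.24 on chromosome 7 and -0.22 on chromosome 18. Of 504 such genes on chromosome 10, 66 were higher (13.1%), and of 838 on chromosome 11, 43 (5.13%).

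In *6KO2*, which was derived from the *E1E2 G9Gl* clone, several levels lay nearer to *E1E2* than to *E1E2 G9Gl*. *Ccl2* had a mean normalized count of 11340 there, against 12076 in *E1E2* and 1768 in *E1E2 G9Gl*. *Cdkn1a* had 1049, against 968 and 239.5, and *Oas2* 38.7, against 42.6 and 1413. *Map2* (743, against 5.92 and 674) and *Ndn* (661, against 0.369 and 506) lay near *E1E2 G9Gl*.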
